A study of Mus musculus with 9 samples.

Results

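Prostaglandin synthesis and response in cultured vascular progenitor cells was followed through 10 genes, which were *Pla2g4a*, *Ptgs1*, *Ptgs2*, *Ptgis*, *Ptges*, *Ptgds*, *Hpgd*, *Ptger2*, *Ptger4*, and *Ptgfr*. They were chosen by name, from a list of enzymes and receptors of this pathway, and matched by symbol to the Ensembl identifiers of a count table of 55416 genes. The choice was made with earlier results of these data known. The cells were AdvSca1-SM cells, Sca1-positive progenitors of smooth muscle origin. They were sorted as Sca1- and YFP-positive cells from the aorta and carotid arteries of pooled 8-week-old SM22α-Cre-YFP mice on a C57BL/6 background, in which the smooth muscle promoter SM22α drives Cre, and were used at passages 2 to 6. Per the labels, cells were growth-arrested for 24 hours in 0.1% FBS before treatment, and all received 0.1% DMSO over 72 hours; the growth arrest is described for treated cells, and whether Stem cells were arrested is not given in the sources used here. Stem cells were cultured in stem cell medium, TGF cells received 5 ng/mL TGF-β1 in DMEM with 0.1% FBS, and Both cells received the same plus 50 µM PFI-3, which binds the bromodomain of the chromatin remodeler Brg1. Each group had 3 libraries from independent replicates. The stem cell medium, as described for maintenance, holds 10% FBS with 1 ng/mL bFGF and 5 ng/mL EGF, so medium and TGF-β1 cannot be told apart between Stem and TGF. No group received PFI-3 alone.

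Prostaglandins are made when phospholipase A2 releases arachidonic acid from membranes and a cyclooxygenase converts it to the unstable intermediate prostaglandin H2. Terminal synthases then make prostacyclin, prostaglandin E2, D2, or F2α, or thromboxane, each of which acts on its own G protein–coupled receptors, and dehydrogenases and reductases break the products down. In the vessel wall, prostacyclin is known as a vasodilator and inhibitor of platelet aggregation, thromboxane A2 as a vasoconstrictor, and prostaglandin E2 as a signal that limits fibroblast activation through its cAMP-raising receptors EP2 and EP4. *Ptgs1* encodes the cyclooxygenase usually described as constitutive, and *Ptgs2* the inducible one.

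Of the 10 genes, 9 had a promoter window in RefSeq (build GRCm38.p6), covering 250 bases before and 50 bases after the annotated start. *Ptgis* had none. The windows of the 2 cyclooxygenase genes are shown because their transcripts moved in opposite directions, and those of *Ptger4* and *Ptgfr* because they fell most. Capitals mark matches, on either strand, to any of the 9 motifs searched, which were the TATA box TATAAA, CRE TGACGTCA, E-box CACGTG, AP-1 TGANTCA, SMAD element GTCTAGAC, CAGA box CAGAC, TEAD GGAATG, C/EBP TTGCGCAA, and NF-kB GGGACTTTC. Matches were read without regard to one another, and none of those marked overlapped. The counts were aligned to another build, GRCm39, and these sequences were not used in any test.
Ptgs1, chr2:36230176-36230475, plus strand: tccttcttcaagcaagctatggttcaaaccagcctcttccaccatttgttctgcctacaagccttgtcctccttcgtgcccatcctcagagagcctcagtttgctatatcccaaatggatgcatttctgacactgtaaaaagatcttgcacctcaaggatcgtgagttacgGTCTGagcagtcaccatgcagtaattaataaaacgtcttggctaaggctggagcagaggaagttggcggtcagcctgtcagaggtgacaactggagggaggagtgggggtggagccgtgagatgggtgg
Ptgs2, chr1:150099781-150100080, plus strand: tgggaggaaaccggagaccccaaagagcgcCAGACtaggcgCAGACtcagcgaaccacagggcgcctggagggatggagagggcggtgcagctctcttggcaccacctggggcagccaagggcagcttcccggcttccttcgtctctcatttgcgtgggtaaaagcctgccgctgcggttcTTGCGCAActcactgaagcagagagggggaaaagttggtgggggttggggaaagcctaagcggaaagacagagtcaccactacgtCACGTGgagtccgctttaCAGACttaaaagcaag
Ptger4, chr15:5244138-5244437, minus strand: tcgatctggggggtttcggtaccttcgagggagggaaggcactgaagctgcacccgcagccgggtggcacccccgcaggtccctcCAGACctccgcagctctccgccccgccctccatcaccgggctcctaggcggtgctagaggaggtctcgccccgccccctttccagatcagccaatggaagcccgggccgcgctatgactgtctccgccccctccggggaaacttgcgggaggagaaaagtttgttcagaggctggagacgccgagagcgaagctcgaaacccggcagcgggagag
Ptgfr, chr3:151837479-151837778, minus strand: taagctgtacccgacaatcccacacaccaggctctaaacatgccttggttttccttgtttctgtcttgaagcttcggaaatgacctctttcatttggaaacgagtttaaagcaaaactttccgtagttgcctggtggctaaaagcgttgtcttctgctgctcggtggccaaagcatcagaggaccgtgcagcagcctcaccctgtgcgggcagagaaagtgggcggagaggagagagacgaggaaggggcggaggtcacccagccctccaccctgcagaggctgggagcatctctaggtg

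The *Ptgs2* window held 1 match to the C/EBP palindrome, whose first base lay at position -69 with the annotated start at 0, a match present in 0.183% of the 32841 RefSeq windows of the same length. It also held 1 E-box at position 16, present in 7.15% of windows, and 3 CAGA boxes. A CAGA box was present in 49.6% of all windows, and those of *Ptgs1* and *Ptger4* held 1 each. The *Ptgfr* window held no match to the 9 motifs. The remaining shares of all windows were 13.6% for the TATA box, 1.79% for the CRE, 7.81% for AP-1, 0.213% for the SMAD element, 14.7% for TEAD, and 0.353% for NF-kB. Among the windows not shown, a TATA box was matched in *Hpgd* and in a window of *Pla2g4a*, AP-1 in *Ptgds*, and TEAD in *Ptges*. The CRE, the SMAD element, and NF-kB had no match in any member window.

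The libraries held between 35686291 and 37262375 counts in Stem, 39453841 and 43194424 in TGF, and 42683050 and 47741128 in Both. Stem replicate 2 stood apart from the other Stem libraries, with a chi-square per degree of freedom of 127 and 104 against them compared with 7.42 between Stem replicates 1 and 3. Without it, the log2 fold changes from Stem to TGF were -1.08 for *Ptgs1*, 2.69 for *Ptgs2*, 0.58 for *Ptgis*, -1.44 for *Ptges*, 0.48 for *Pla2g4a*, -3.25 for *Ptger4*, and -4.05 for *Ptgfr*. With or without it, 5 members had an adjusted p below 0.05 and a change of at least 2-fold. The summed level of 4 progenitor markers (*Ly6a*, *Cd34*, *Pdgfra*, and *Scara5*) was between 50475 and 58767 normalized counts in Stem, 6361 and 6638 in TGF, and 6784 and 7423 in Both. A normalized count is a read count scaled to the mean library of 41184338 reads. Most of the progenitor sum was *Pdgfra* in each group, with a mean of 5438 in TGF and 6268 in Both. By contrast, *Ly6a* (941 to 734), *Cd34* (20.8 to 13.4), and *Scara5* (92.3 to 41.3) were lower in mean in Both than in TGF. The TGF and Both libraries of *Cd34* overlapped. The labels' extraction text speaks of hepatic tissue, but of 5 hepatocyte markers 4 were at or below 3 counts in every library. The other, *Apob*, had between 30 and 46 reads in the Stem libraries, 27 and 31 in TGF, and 12 and 20 in Both. The 5 macrophage markers summed to between 19.6 and 41.9 in Stem, 71.0 and 103 in TGF, and 152 and 156 in Both, most of it *Csf1r*, and *Adgre1* and *Itgam* were at 0 in all 9 libraries.

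The comparison of Stem with TGF asks how these transcripts differed between stem cell medium and TGF-β1 in DMEM with 0.1% FBS. Medium and TGF-β1 change together in it. From Stem to TGF, *Ptgs2* rose 6.99-fold while *Ptgs1* fell 2.03-fold, the prostacyclin synthase *Ptgis* rose 1.40-fold while the prostaglandin E synthase *Ptges* fell 2.56-fold, and the receptors *Ptger4* and *Ptgfr* fell 8.87-fold and 15.8-fold. All 7 members that passed the filter on low counts had an adjusted p below 0.05 in edgeR's quasi-likelihood test, as did 75.0% of the 14879 genes tested. Requiring also a 2-fold change left 5 members, 1 higher (*Ptgs2*) and 4 lower (*Ptgs1*, *Ptges*, *Ptger4*, and *Ptgfr*), where 25.1% of all tested genes were called, 10.6% higher and 14.5% lower. The median log2 fold change of the 7 was -1.02, against -0.0027 over all tested genes. Because earlier results of these data were known when the members were chosen, these comparisons with all tested genes are descriptions. *Ptgds*, *Hpgd*, and *Ptger2* did not pass the filter and were not tested.

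**Figure D1:**
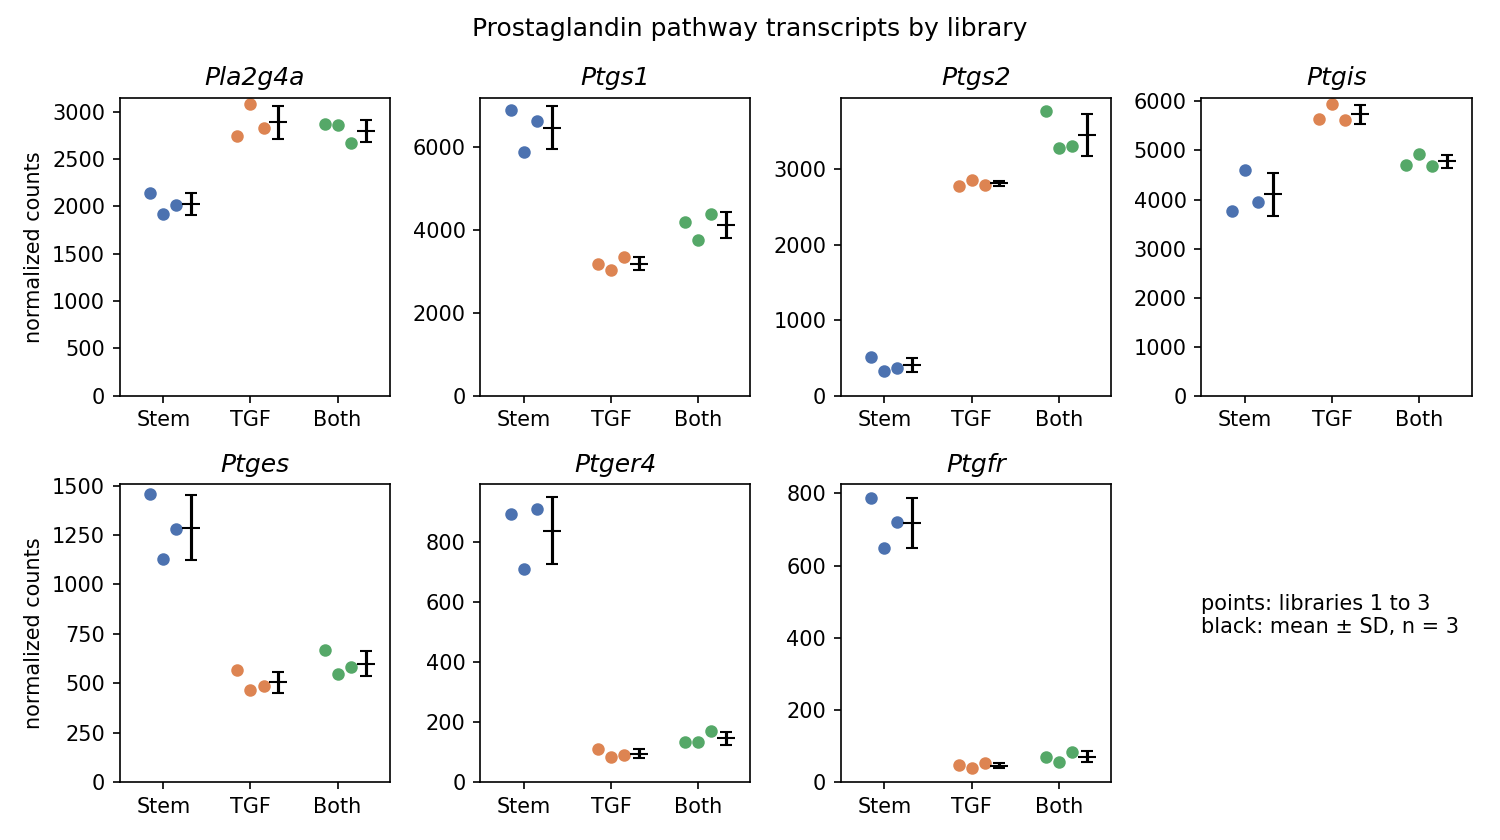
Normalized counts (vertical axis of each panel, from 0) of the 7 tested transcripts in the 3 Stem, 3 TGF, and 3 Both libraries (horizontal axis). Colored points are libraries and black marks are the mean ± SD of each group. The Stem libraries lie apart from the TGF libraries in all 7 panels, below them for *Pla2g4a*, *Ptgs2*, and *Ptgis* and above them for the other 4. Of all tested genes, 75.0% had an adjusted p below 0.05 between these groups. The share whose libraries lie apart is not given here.

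Levels of different genes were set side by side only per length, as RPKM, the reads per kilobase of the longest annotated transcript scaled to a library of 1000000 reads. In Stem, *Ptgs1* had 54.8 ± 4.41 (SD, n = 3) and *Ptgis* 47.3 ± 5.00, and their libraries overlapped. *Pla2g4a* (14.2 ± 0.795), *Ptges* (8.58 ± 1.09), and *Ptger4* (5.40 ± 0.719) followed, each apart from its neighbors, and *Ptgfr* (2.63 ± 0.256) and *Ptgs2* (2.19 ± 0.507) came last and overlapped. In TGF the order per length was *Ptgis*, *Ptgs1*, *Pla2g4a*, *Ptgs2*, *Ptges*, *Ptger4*, and *Ptgfr*, with no overlap between neighbors, so that *Ptgs2* moved from the last to the fourth place. Both had the same order, except that *Pla2g4a* (19.7 ± 0.808) and *Ptgs2* (18.8 ± 1.52) overlapped. The order depends on the transcript chosen. With the shortest annotated transcript of each gene, *Pla2g4a* was highest in TGF and Both, and *Ptger4* lowest in all 3 groups.

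*Pla2g4a*, which encodes the cytosolic phospholipase A2 that releases arachidonic acid, had 2144, 1919, and 2013 normalized counts in the Stem libraries, 2748, 3086, and 2832 in TGF, and 2868, 2859, and 2665 in Both. Every TGF and Both library lay above every Stem library, and the TGF and Both libraries overlapped. Its level was 1.43-fold higher in TGF than in Stem (95% interval 1.31 to 1.55, adjusted p = 3.87e-06) and 1.38-fold higher in Both than in Stem (1.27 to 1.50, adjusted p = 9.67e-06). Among the 11 other phospholipase A2 genes examined, the secreted enzyme *Pla2g12a* rose from 327 ± 11.8 in Stem to 827 ± 36.0 in TGF and 798 ± 21.0 in Both. The secreted enzyme *Pla2g2e* was scarce, with 4.19, 5.43, and 1.08 normalized counts in Stem, 32.4, 17.2, and 21.5 in TGF, and 2.70, 11.8, and 10.5 in Both. It was 6.41-fold higher in TGF than in Stem (95% interval 2.83 to 14.5, adjusted p = 6.85e-04). *Pla2g4b* and *Pla2g4c*, of the same cytosolic family as *Pla2g4a*, fell 2.61-fold (adjusted p = 6.14e-04) and 2.38-fold (adjusted p = 0.0293) in TGF, from 35.7 ± 3.75 and 14.0 ± 6.88 normalized counts. The libraries of *Pla2g4c* overlapped between Stem and TGF.

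*Ptgs1* had 6887, 5885, and 6627 normalized counts in Stem, 3184, 3028, and 3342 in TGF, and 4204, 3766, and 4384 in Both. The 3 groups did not overlap, and Both lay between Stem and TGF. It was 2.03-fold lower in TGF than in Stem (95% interval 1.83 to 2.25, adjusted p = 4.15e-08) and 1.57-fold lower in Both than in Stem (1.42 to 1.74, adjusted p = 2.63e-06). The fall in TGF stood near the 2-fold limit, and among 17 alternative analyses it missed that limit without Stem replicate 1 or without TGF replicate 2, with a log2 fold change as small as -0.97.

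*Ptgs2* had 508, 334, and 365 normalized counts in Stem, 2786, 2858, and 2800 in TGF, and 3774, 3281, and 3305 in Both. Stem was lowest and Both highest, without overlap, and the TGF libraries lay close together. It was 6.99-fold higher in TGF than in Stem (95% interval 5.87 to 8.32, adjusted p = 4.41e-10) and 8.58-fold higher in Both than in Stem (7.21 to 10.2, adjusted p = 2.02e-10). These rises were called in all 17 alternatives.

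Per length, *Ptgs2* made up 3.82% ± 0.614 (SD, n = 3) of the summed cyclooxygenase transcript in Stem, 36.3% ± 1.40 in TGF, and 35.1% ± 2.11 in Both. In the single libraries the share was 4.53%, 3.52%, and 3.42% in Stem, 36.0%, 37.8%, and 35.0% in TGF, and 36.6%, 35.9%, and 32.7% in Both. The shares of TGF and Both overlapped and lay above those of Stem. The summed level of the pair was 57.0 ± 4.83 RPKM in Stem, 42.3 ± 1.18 in TGF, and 53.7 ± 3.44 in Both, with overlap between Stem and Both. With the shortest annotated transcripts the *Ptgs2* share was 8.99%, 58.6%, and 57.3% in the 3 groups, and the sum was then higher in TGF (326 ± 4.99) than in Stem (301 ± 27.4) in mean, with overlapping libraries. In Both it was then 409 ± 26.0, and its libraries (382 to 434) lay above all those of Stem (272 to 326). These shares are descriptions and were not tested.

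**Figure D2:**
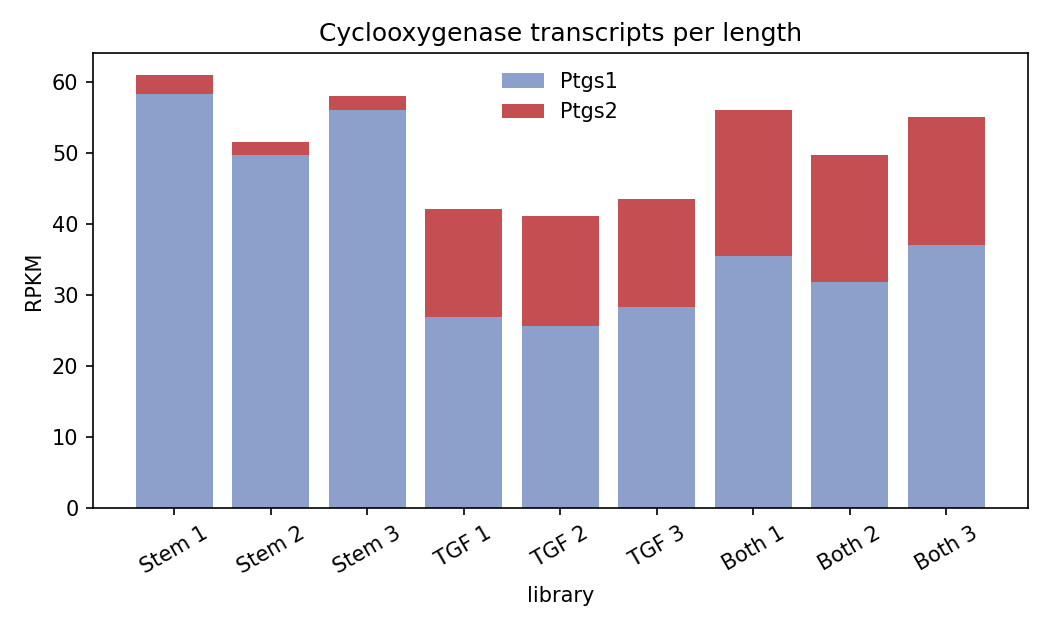
Transcript level of the cyclooxygenase genes in each of the 9 libraries (horizontal axis), as stacked bars in RPKM of the longest transcript (vertical axis, from 0), with *Ptgs1* below and *Ptgs2* on top. *Ptgs2* is a thin cap in Stem, where its share is between 3.42% and 4.53%, and takes between 32.7% and 37.8% of the bar in TGF and Both.

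*Ptgs2* lies on chromosome 1 in the RefSeq order *Pla2g4a*, *Ptgs2os*, *Ptgs2*, *Ptgs2os2*, with only predicted pseudogenes between them. The 2 neighboring noncoding RNAs were looked at after the values of the members were known. *Ptgs2os2* (also called lincRNA-Cox2) had 16.8, 6.52, and 20.6 normalized counts in Stem, 31.3, 41.6, and 35.2 in TGF, and 36.9, 44.4, and 29.8 in Both. It was 2.45-fold higher in TGF than in Stem (95% interval 1.50 to 3.998, adjusted p = 0.00310). *Ptgs2os* had between 21.6 and 23.0 normalized counts in Stem and between 24.4 and 32.5 in TGF, and its change was not past the threshold (1.23-fold, 95% interval 0.893 to 1.69, adjusted p = 0.256).

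Among the genes whose pattern over the 9 libraries was most like that of *Ptgs1*, by Pearson's correlation of log2 CPM (library-scaled counts), were *Zfp398* and *Helz* (r = 0.996 and 0.994). Among those most like *Ptgs2* were *Adipor1* and *P3h1* (r = 0.999 and 0.998). The points share 3 groups of libraries, and a correlation of at least 0.95 was found for 751 genes (5.05% of 14872) with *Ptgs1* and for 2133 (14.3%) with *Ptgs2*.

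*Ptgis*, which encodes prostacyclin synthase, had 3772, 4595, and 3944 normalized counts in Stem, 5642, 5956, and 5614 in TGF, and 4705, 4934, and 4693 in Both. TGF was highest and did not overlap with either other group. It was 1.40-fold higher in TGF than in Stem (95% interval 1.27 to 1.54, adjusted p = 1.95e-05) and 1.16-fold higher in Both than in Stem (1.06 to 1.28, adjusted p = 0.00761). The second of these missed the threshold when libraries were scaled to total counts (adjusted p = 0.0681). Without Stem replicate 2, which had the highest Stem value, the log2 fold change between Stem and Both was 0.32 instead of 0.22.

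*Ptges*, the inducible microsomal prostaglandin E synthase that is known to work with Ptgs2, had 1457, 1129, and 1279 normalized counts in Stem, 564, 464, and 486 in TGF, and 667, 546, and 581 in Both. All TGF and Both libraries lay below all Stem libraries. It was 2.56-fold lower in TGF (95% interval 2.18 to 3.00, adjusted p = 1.75e-07) and 2.15-fold lower in Both (1.84 to 2.52, adjusted p = 9.73e-07) than in Stem. *Ptges2*, another prostaglandin E synthase, was 1.18-fold higher in TGF than in Stem (adjusted p = 0.00906), with 445 ± 12.9 and 524 ± 42.9 normalized counts. *Ptges3*, the cytosolic form that is also a heat shock protein cochaperone, had a level of 6496 ± 260 in Stem against 6714 ± 347 in TGF (adjusted p = 0.372).

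The prostaglandin D synthases were at the limit of detection. *Ptgds* had at most 1 read in any library, and *Hpgds*, the hematopoietic form, also at most 1 read. Thromboxane synthase (*Tbxas1*) had at most 5 reads. The floor of 3 reads corresponds to between 2.63 and 3.26 normalized counts, so levels below this could not be detected at this depth. Floors and counts cover counting error only.

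*Ptger4*, which encodes the prostaglandin E2 receptor EP4, had 895, 710, and 910 normalized counts in Stem, 111, 84.2, and 88.9 in TGF, and 133, 133, and 169 in Both. Stem was highest, TGF lowest, and Both lay just above TGF, without overlap. It was 8.87-fold lower in TGF (95% interval 7.20 to 10.9, adjusted p = 8.05e-10) and 5.77-fold lower in Both (4.75 to 6.995, adjusted p = 3.45e-09) than in Stem.

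*Ptgfr*, which encodes the prostaglandin F2α receptor, had 787, 648, and 719 normalized counts in Stem, 46.4, 37.5, and 51.8 in TGF, and 70.2, 55.3, and 84.3 in Both. The groups were ordered as for *Ptger4* and did not overlap. It was 15.8-fold lower in TGF (95% interval 12.7 to 19.8, adjusted p = 1.72e-10) and 10.2-fold lower in Both (8.32 to 12.5, adjusted p = 4.19e-10) than in Stem. *Ptger2*, which encodes the other cAMP-raising prostaglandin E2 receptor, EP2, had 2, 1, and 1 reads in the Stem libraries and 0 in all TGF and Both libraries, which allows up to 3.24 normalized counts in a TGF library.

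The receptors outside the member list were set beside them. *Ptgir*, which encodes the prostacyclin receptor, had 656, 842, and 732 normalized counts in Stem, 50.7, 56.8, and 55.7 in TGF, and 47.7, 55.3, and 32.5 in Both. It was 13.6-fold lower in TGF than in Stem (95% interval 10.9 to 17.0, adjusted p = 2.92e-10), in the same libraries in which the synthase of its ligand, *Ptgis*, was higher. *Tbxa2r*, the thromboxane receptor, moved the other way, with 397, 377, and 447 normalized counts in Stem and 622, 564, and 644 in TGF, a 1.50-fold rise (1.34 to 1.68, adjusted p = 1.92e-05). The scarce prostaglandin E2 receptors *Ptger1* and *Ptger3* were 1.95-fold (adjusted p = 2.03e-04) and 4.58-fold (adjusted p = 7.55e-05) lower in TGF than in Stem. The prostaglandin D2 receptors *Ptgdr* and *Ptgdr2* did not pass the filter on low counts. *Ptgfrn*, a membrane protein named as a negative regulator of the prostaglandin F2α receptor, was 1.22-fold higher in TGF than in Stem (adjusted p = 5.99e-05).

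Summed per length over the 9 prostanoid receptor genes, the receptor level was 19.4 ± 0.905 RPKM in Stem, 9.25 ± 0.624 in TGF, and 8.83 ± 0.121 in Both. In Stem the sum was spread over *Ptgir* (28.3% ± 4.37), *Ptger4* (27.8% ± 2.87), *Tbxa2r* (26.6% ± 1.09), and *Ptgfr* (13.6% ± 1.27). In TGF *Tbxa2r* alone held 83.5% ± 1.13 of it and in Both 79.0% ± 1.17, while *Ptger4* held 6.59% ± 0.802 and 10.6% ± 1.55. With the shortest annotated transcripts the sum was 84.2 ± 6.18 in Stem, 15.1 ± 1.41 in TGF, and 16.6 ± 1.19 in Both, so the size of the fall and the order of the means of TGF and Both depend on the transcript chosen. *Ptgfr* then held the largest share in Stem (74.1% ± 2.10), and the *Tbxa2r* share was 6.66%, 55.5%, and 45.8% in the 3 groups. The progenitor markers fell between the same groups as *Ptger4*, *Ptgfr*, and *Ptgir*, and their part in these falls was not tested. In RNA from whole cultures, fewer cells with a transcript and less of it per cell cannot be told apart.

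**Figure D3:**
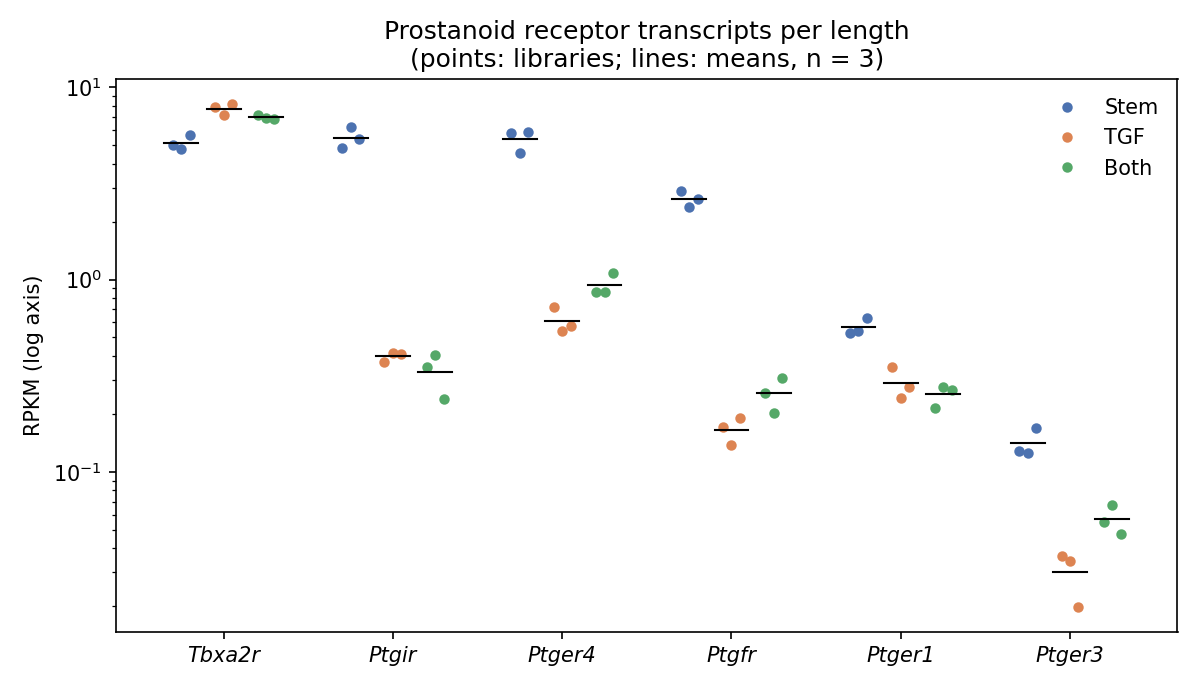
Level of 6 prostanoid receptor transcripts in RPKM of the longest transcript (vertical log axis) in the libraries of Stem, TGF, and Both. Points are libraries and lines are means of 3. *Tbxa2r* rises from Stem to TGF, whereas *Ptgir*, *Ptger4*, *Ptgfr*, *Ptger1*, and *Ptger3* fall, with *Ptgfr* 15.8-fold and *Ptgir* 13.6-fold lower.

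*Hpgd*, which encodes the 15-hydroxyprostaglandin dehydrogenase that starts prostaglandin breakdown, had between 0 and 2 reads in the Stem libraries, 0 and 5 in TGF, and 2 and 3 in Both, and was not tested. The reductases that act next were detected in every library. *Ptgr1* fell 1.74-fold, from 1730 ± 208 to 992 ± 17.9 normalized counts (adjusted p = 7.76e-07), and *Zadh2*, which encodes prostaglandin reductase 3, fell 1.53-fold (adjusted p = 2.38e-08). The level of *Ptgr2* was 2018 ± 50.0 in Stem against 1951 ± 91.4 in TGF (adjusted p = 0.321). *Slco2a1*, the transporter that takes prostaglandins up into cells, fell 1.56-fold from Stem to TGF (adjusted p = 1.88e-06), and *Abcc4*, which exports them, rose 1.61-fold (adjusted p = 2.86e-07).

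Of 31 further genes of prostanoid synthesis, transport, breakdown, and reception, 20 passed the filter on low counts. Between Stem and TGF, 18 of the 20 had an adjusted p below 0.05, 9 higher and 9 lower, beside 75.0% of all tested genes. With the 2-fold limit 6 of the 20 were called, a share near the 25.1% of all tested genes, of which *Pla2g2e* and *Pla2g12a* were higher and *Ptgir*, *Ptger3*, *Pla2g4b*, and *Pla2g4c* lower. The call of *Pla2g4c* (adjusted p = 0.0293) was made in 10 of 17 alternatives and was lost, among others, with DESeq2 and without Stem replicate 2, Stem replicate 3, TGF replicate 1, or TGF replicate 2. With the 2-fold limit kept, the number called ranged from 5 to 7 over the alternatives. The median absolute log2 fold change of these 20 was 0.63, that of the 7 members 1.35, and that of all tested genes 0.49. Of 16 genes of the lipoxygenase and epoxide branches, the other routes from arachidonic acid, 5 passed the filter and 1 was called, again near that share. That gene was *Ephx2*, the soluble epoxide hydrolase, which rose 2.98-fold from 282 ± 40.2 to 839 ± 47.6 normalized counts (adjusted p = 1.81e-08). The counting strand is not stated in the sources used here, and in RefSeq *Pla2g4b* overlaps *Sptbn5* and *Gm28042*, and *Ptges* and *Ptgis* overlap predicted loci.

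The comparison of TGF with Both asks what PFI-3 changed in the presence of TGF-β1, and each tested member differed by less than 2-fold. *Ptgs1* was 1.29-fold higher in Both (95% interval 1.17 to 1.43, adjusted p = 0.00569), *Ptger4* was 1.54-fold higher (1.21 to 1.95, adjusted p = 0.0310), and *Ptgis* was 1.20-fold lower (1.09 to 1.32, adjusted p = 0.0219). These 3 of the 7 tested members had an adjusted p below 0.05, 2 higher and 1 lower, where 8.92% of all tested genes did, 3.54% higher and 5.38% lower. The count at an unadjusted p below 0.05 was 6, and DESeq2 gave 4 at an adjusted p below 0.05. The shares of all tested genes at these settings are not given here, so these counts are not set against a background. With the 2-fold limit 0 members were called by edgeR and 0 by DESeq2, also at an unadjusted p, where 0.632% of all tested genes were called by edgeR.

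The change of *Ptgs1* kept an adjusted p below 0.05 in all 17 alternatives, with log2 fold changes between 0.32 and 0.43. That of *Ptger4* was lost without TGF replicate 2, TGF replicate 3, Both replicate 1, or Both replicate 3, with adjusted p up to 0.131. That of *Ptgis* was lost without any of the 3 TGF libraries and without Both replicate 1 or Both replicate 3, with adjusted p up to 0.0998. Leaving out Both replicate 2 ended no call. The summed macrophage markers and the myofibroblast markers *Acta2*, *Tagln*, *Postn*, and *Col1a1* also differed between these groups, the latter with sums between 723135 and 773098 in TGF and 513427 and 544717 in Both, and their part in these values was not tested.

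The other 4 members were not past the threshold. *Ptgs2* was 1.23-fold higher in Both than in TGF (95% interval 1.06 to 1.42, adjusted p = 0.0836), with all 3 Both libraries above all 3 TGF libraries. *Ptgfr* was 1.55-fold higher (1.17 to 2.06, adjusted p = 0.0579), again without overlap. Each of these passed in some alternatives, *Ptgs2* without Stem replicate 1 or Stem replicate 2 (adjusted p = 0.00348 and 0.0164), and *Ptgfr* with DESeq2 (adjusted p = 0.0152) and without Stem replicate 2 (adjusted p = 0.0316), among others. *Ptges* was 1.19-fold higher (1.01 to 1.40, adjusted p = 0.189, and 0.0245 without a filter on low counts), and *Pla2g4a* was 1.03-fold lower (0.951 to 1.12, adjusted p = 0.665), each with overlapping libraries. Of the 20 further pathway genes tested, *Zadh2* was 1.13-fold higher (adjusted p = 0.0129) and *Abcc4* 1.15-fold lower (adjusted p = 0.0405). With the 2-fold limit 0 were called with edgeR or DESeq2 at an adjusted p below 0.05, against 1 with edgeR at an unadjusted p. That gene was the scarce *Pla2g2e*, 2.82-fold lower in Both (95% interval 1.455 to 5.449, adjusted p = 0.0547), without overlap. It was called in 4 of 17 alternatives. None of the 5 lipoxygenase and epoxide genes tested with edgeR passed, with 4 at an unadjusted p below 0.05 and 0 with DESeq2. The share of all tested genes at an unadjusted p below 0.05 is not given here.

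Between Stem and Both all 7 tested members again had an adjusted p below 0.05, as did 73.3% of all tested genes. With the 2-fold limit 4 were called, *Ptgs2* higher and *Ptges*, *Ptger4*, and *Ptgfr* lower, where 22.8% of all tested genes were called, 9.55% higher and 13.2% lower. *Ptgs1*, 1.57-fold lower, was not. The comparisons of Stem with TGF, Stem with Both, and TGF with Both share libraries, so their values are given side by side and are not independent. Of the further pathway genes, 14 of 20 had an adjusted p below 0.05 and 5 were called, shares near those of all tested genes, *Pla2g12a* higher and *Ptgir*, *Ptger1*, *Ptger3*, and *Pla2g4b* lower.

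**Figure D4:**
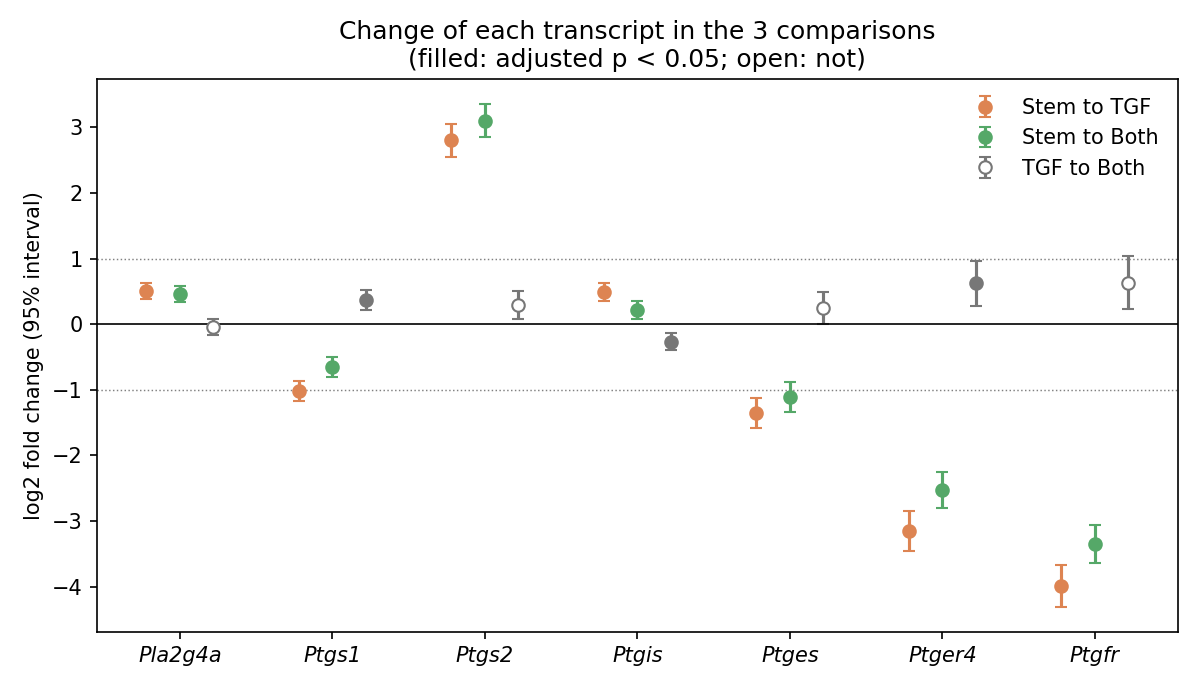
Log2 fold change with 95% interval (vertical axis) of the 7 tested transcripts (horizontal axis) from Stem to TGF, Stem to Both, and TGF to Both. Filled points have an adjusted p below 0.05 and dotted lines mark 2-fold. *Ptgs2* lies at 2.81 and 3.10 and *Ptgfr* at -3.98 and -3.35 in the comparisons with Stem, whereas all 7 points from TGF to Both lie between -0.26 and 0.63.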

How the data were processed

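RNA was sequenced from 9 libraries (ribosomal RNA–depleted, stranded, paired-end). The authors deposited raw counts per Ensembl gene without normalization. The paper names Flexbar and STAR, whereas the submitters' processing notes name HISAT2 2.2.1, SAMtools 1.13, and HTSeq 0.11.3, with GRCm39 in each; counting strand and multi-mapped reads are not given in the sources used here. Totals were between 35686291 and 47741128 counts. Counts were kept by filterByExpr, scaled by TMM, and tested together for all 9 libraries, with a term for the group and no other, by edgeR 4.0.16's quasi-likelihood test (R 4.3.3, limma 3.58.1), with Benjamini-Hochberg adjustment over 14879 genes. Genes were called at an adjusted p below 0.05, with a 2-fold limit where stated; intervals are unadjusted 95% intervals. The study's methods name DESeq2, run here as version 1.42.0 as an alternative. Other alternatives were size factors or total counts, other filters, a fit of the compared groups alone, blocking on the replicate number, a larger prior count, and leaving out each library. Symbols and transcript lengths came from GENCODE M21 (GRCm38). All 10 members are named, with the further pathway genes called in any comparison; other genes of each role were added after their values were seen. Members, lists, and motifs were chosen with earlier results of these data known. On simulated counts (Stem versus TGF, 14879 genes), edgeR with the 2-fold limit recovered 195 of 200 changed genes with 0 false calls. The simulation used a common dispersion and only changes larger than 2-fold. It therefore does not bear on the smaller changes from TGF to Both. The replicates are stated to be independent without a source, so p-values measure the spread between these libraries. Results for 3 items withheld for evaluation are not reported here.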

Additional observations from a re-analysis of the deposited data

How the results depend on the processing

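All 7 member values between Stem and TGF kept their direction and their side of an adjusted p of 0.05 in all 17 alternatives. Over the 3 comparisons, 332 of 357 alternative values did so, 10 lost the threshold, 14 gained it, and 1 reversed, which was *Pla2g4a* from TGF to Both (-0.0468 as reported, and between -0.0821 and 0.0021 on leaving out a library, the latter without TGF replicate 2). Without the 2-fold limit the calls between TGF and Both were 3 members, 2 pathway genes, and 1327 genes in all (94 with it). Between Stem and TGF they were 18 pathway genes and 11158 genes (3739 with it), and between Stem and Both 7 members, 14 pathway genes, and 10900 genes (3385 with it). The count of members with an adjusted p below 0.05 between TGF and Both was 3 as reported. It was 6 without a filter on low counts and 5 with only the 2 groups compared. For the alternatives, the share of all tested genes at an adjusted p below 0.05 is not given here. With the 2-fold limit added, 163 genes in all and 1 pathway gene were called without the filter. With only the 2 groups compared, 1 pathway gene was called at that limit. Leaving out a library gave between 1 and 5 members at an adjusted p below 0.05. The count was 5 without Stem replicate 1 or Stem replicate 2. It was 1 without TGF replicate 2, TGF replicate 3, Both replicate 1, or Both replicate 3. With the 2-fold limit added, between 0 and 1 pathway gene was called, the 1 without Stem replicate 2. The cause was not tested. Same-numbered libraries correlated between 0.139 and 0.196 for replicate 2, 0.009 and 0.11 for replicate 1, and -0.054 and 0.018 for replicate 3 in their deviations from the group means. Not every pair was over 0.1 and not every library correlated best with its own number, so the numbers were not taken to pair the libraries. With the replicate block, 6 members between TGF and Both had an adjusted p below 0.05, *Ptges* among them (0.00785). With the 2-fold limit added, 1 pathway gene was called there. With total counts as the scale, the all-gene median from Stem to TGF was -0.122 on the log2 scale. Depth limits *Ptgds*, *Hpgd*, and *Ptger2*, which had at most 5 reads in any library.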
